A study of Mus musculus with 8 samples.

Results

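Genes for heat shock proteins, their J protein partners and the chaperonins were compared between macrophages labelled as a double knockout of the Mediator kinase genes Cdk8 and Cdk19 and macrophages that carry only the recombinase. Members were all rows of the deposited table whose symbol begins with Dnaj, Hspa, Hspb, Hspd, Hspe, Hsph or Hsp90, Bag1 to Bag6 and Cct2 to Cct8, together with Tcp1 and Hsf1. The chaperones of the endoplasmic reticulum Hspa5, Hsp90b1, Dnajb9 and Dnajc3 and symbols of pseudogenes were set aside. This gave 86 genes of 34432 in the table, all annotated as protein coding: 43 J proteins, 10 HSP70 genes, 3 HSP110 genes, 2 cytosolic HSP90 genes, 8 small heat shock proteins, 6 BAG genes, 9 genes of the cytosolic chaperonin family, both subunits of the mitochondrial chaperonin, 2 binding proteins and the regulator Hsf1.

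The cells were mouse macrophages differentiated in culture from bone marrow precursors and harvested untreated on day 7, and their polyadenylated RNA was sequenced. The double knockout (genotype CDK8CDK19KO) carried floxed Cdk8, a Vav-iCre recombinase and a null Cdk19, and the control (genotype VAV-cre) carried the recombinase alone, with 4 libraries in each group. Both groups therefore share the Vav-driven Cre, whose promoter is active in blood-forming cells, and differ in the floxed Cdk8 and in Cdk19. The labels give neither age nor sex and do not say whether libraries came from separate animals or cultures, so the p-values reflect only the scatter between these libraries, which may be technical.

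Molecular chaperones bind unfolded or newly made proteins and help them reach their shape. HSP70 works in cycles of ATP hydrolysis that J proteins start and that nucleotide exchange factors (HSP110, BAG proteins, Hspbp1) reset, HSP90 takes over many kinases and receptors from HSP70, and the ring-shaped chaperonins enclose a protein while it folds. Under heat or other protein stress the transcription factor HSF1 binds repeated GAA and TTC blocks, the heat shock element, and raises many of these genes. Macrophages carry large amounts of the constitutive forms, which also serve receptor folding, vesicle uncoating and the turnover of proteins in lysosomes.

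Estimated reads assigned to genes, recovered from the normalized counts as described below, totalled 17856715 to 21353207 per library. The members took 0.771% to 0.826% of the normalized counts in double knockouts and 0.862% to 0.915% in controls. Cdk19 stood at 396, 391.999, 361 and 342 in double knockouts 1 to 4, against 1299, 1295, 1530.3 and 1682 in controls 1 to 4. Cdk8 stood at 429, 309, 357 and 294 in double knockouts, against 466, 449, 408 and 432 in controls, and because a gene total includes exons outside the floxed part it does not check the deletion. Cdk19 fell (log2 -1.95, adjusted p = 2.95e-08), and Cdk8 was called lower by a smaller amount (log2 -0.35, adjusted p = 0.0374), with 1 of the double knockouts inside the control range. All 14 macrophage markers passed the filter, with a summed level of 403697 to 430101 in double knockouts and 419754 to 454148 in controls, and 9 were called higher and 5 lower. The lymphocyte genes Cd3e, Cd3d and Ncr1, the stromal gene Lum and the dendritic gene Cd209a were at 0 in every library; of 10 lymphocyte markers 1 was tested and was lower, of 8 stromal markers 2 were tested and 1 was lower, and of 8 dendritic markers 2 were tested and 1 was higher. Markers of dividing and of less mature myeloid cells moved with the genotype. The summed level of 15 mitosis markers was 3023 to 3262 in double knockouts and 21942 to 23834 in controls, with all 15 lower. That of 10 monocyte markers was 1796 to 2958 in double knockouts and 6409 to 6762 in controls, with 6 lower and none higher. That of 15 neutrophil markers was 1350.4 to 1669 in double knockouts and 2744 to 4552 in controls, with 10 of the 14 tested lower and none higher. Their part in the changes of chaperone genes was not tested, and in bulk RNA fewer cells of a type and less RNA per cell cannot be told apart. Libraries of 1 genotype also differed among themselves. The chi-square per gene was 7.94 between double knockouts 1 and 2, 8.97 between 3 and 4, and 19.6 to 27.2 across these pairs, and the largest difference within a group was that between controls 1 and 4 (38.2). The double knockouts had mitochondrially encoded reads at 2.60% and 2.98% in libraries 1 and 2 and 4.27% and 4.19% in 3 and 4, and the controls had 2.77% to 3.52%.

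Promoters were searched for an exact form of the letters that HSF1 recognises. RefSeq promoter windows of 300 bases (250 before and 50 after the transcription start, build GRCm38.p6) were at hand for 69 of the 86 members. Those without an entry were Bag4, Cct4, Dnajc2, Dnajc5, Dnajc5b, Dnajc11, Dnajc12, Dnajc18, Dnajc22, Dnajc30, Hsf1, Hsp90aa1, Hsp90ab1, Hspa8, Hspa9, Hspa13 and Hspb2. The element searched was 3 alternating blocks on either strand, GAA, TTC and GAA in turn, each parted from the next by NN, where N is any base; matches may overlap. It was found in 6 of 89 member windows (6.74%) and in 198 of all 32851 windows (0.603%). The 6 windows belong to 4 of the 69 members with a window: Hspd1, Hspe1, Hsph1 and Dnajb6. Of all 27025 genes with a window, 179 held the element (0.662%). Overlapping windows of Hsph1, and likewise of Dnajb6, hold the same single site. Hspd1 and Hspe1 encode both parts of the mitochondrial chaperonin and are transcribed away from each other. Between the start sites used for their RefSeq windows lies 1 element, with 2 overlapping matches that make 4 alternating blocks. The windows of Hspe1, Hsph1 and Dnajb6 are shown with the element in capitals. That of Hspd1 holds the same element as that of Hspe1, read on the other strand, and is not shown.
Hspe1, chr1:55087898-55088197, plus strand: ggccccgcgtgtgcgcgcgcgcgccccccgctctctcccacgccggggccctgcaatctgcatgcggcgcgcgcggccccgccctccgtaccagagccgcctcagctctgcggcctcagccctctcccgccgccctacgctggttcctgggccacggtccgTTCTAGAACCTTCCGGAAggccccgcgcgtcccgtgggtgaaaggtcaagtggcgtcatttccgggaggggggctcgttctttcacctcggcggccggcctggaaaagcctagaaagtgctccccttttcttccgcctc
Hsph1, chr5:149636287-149636586, minus strand: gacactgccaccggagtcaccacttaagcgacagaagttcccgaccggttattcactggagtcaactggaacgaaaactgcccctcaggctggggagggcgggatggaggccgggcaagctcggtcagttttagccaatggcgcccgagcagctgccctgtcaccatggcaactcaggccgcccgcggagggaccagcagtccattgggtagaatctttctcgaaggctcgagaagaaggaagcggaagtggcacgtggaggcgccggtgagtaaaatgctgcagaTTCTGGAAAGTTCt
Dnajb6, chr5:29735648-29735947, plus strand: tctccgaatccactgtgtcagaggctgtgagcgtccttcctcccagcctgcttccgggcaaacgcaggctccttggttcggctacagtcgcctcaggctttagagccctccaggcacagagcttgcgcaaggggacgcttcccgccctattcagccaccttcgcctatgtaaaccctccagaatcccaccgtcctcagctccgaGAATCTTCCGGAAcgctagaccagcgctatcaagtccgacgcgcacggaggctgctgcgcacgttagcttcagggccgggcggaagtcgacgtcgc
The shared element at chr1:55088059-55088076 reads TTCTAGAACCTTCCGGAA on the strand of Hspe1 and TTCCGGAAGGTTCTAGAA on that of Hspd1. In Hsph1 the match lies just after the start sites of its windows. In Dnajb6 it lies before them, at -46 and -127 bases from the start sites. A match is a description of letters, and HSF1 binding was not measured. Only exact blocks were searched, so a window without a match may still hold a looser form of the element.

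Chaperone genes moved in both directions, by small amounts. Of the 86 members, 81 had a read in at least 1 library, and 71 were tested because at least 4 libraries held a value of 10 or more. Of these, 14 rose and 18 fell in the double knockout (limma on log2(value + 1), Benjamini-Hochberg adjusted p under 0.05 over all 11675 genes tested). The 32 genes are 45.1% of the tested members, and 46.6% of all genes tested passed the same threshold, 22.9% higher and 23.8% lower, so the share called was near that of all genes. Changes of at least 2-fold past the threshold were found for 4 of 71 members, against 10.9% of all genes tested. The median log2 fold change was 0.02 over the members and 0.01 over all genes. The groups did not overlap for 29 members (40.8%), against 42.9% of all genes; 13 of them were higher and 16 lower in every double knockout, against 21.2% and 21.7% of all genes. The counts were 9 higher and 17 lower without double knockout 4, 10 and 13 without control 3, and 9 and 12 when double knockout 1 was averaged with 2 and 3 with 4.

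**Figure D1:**
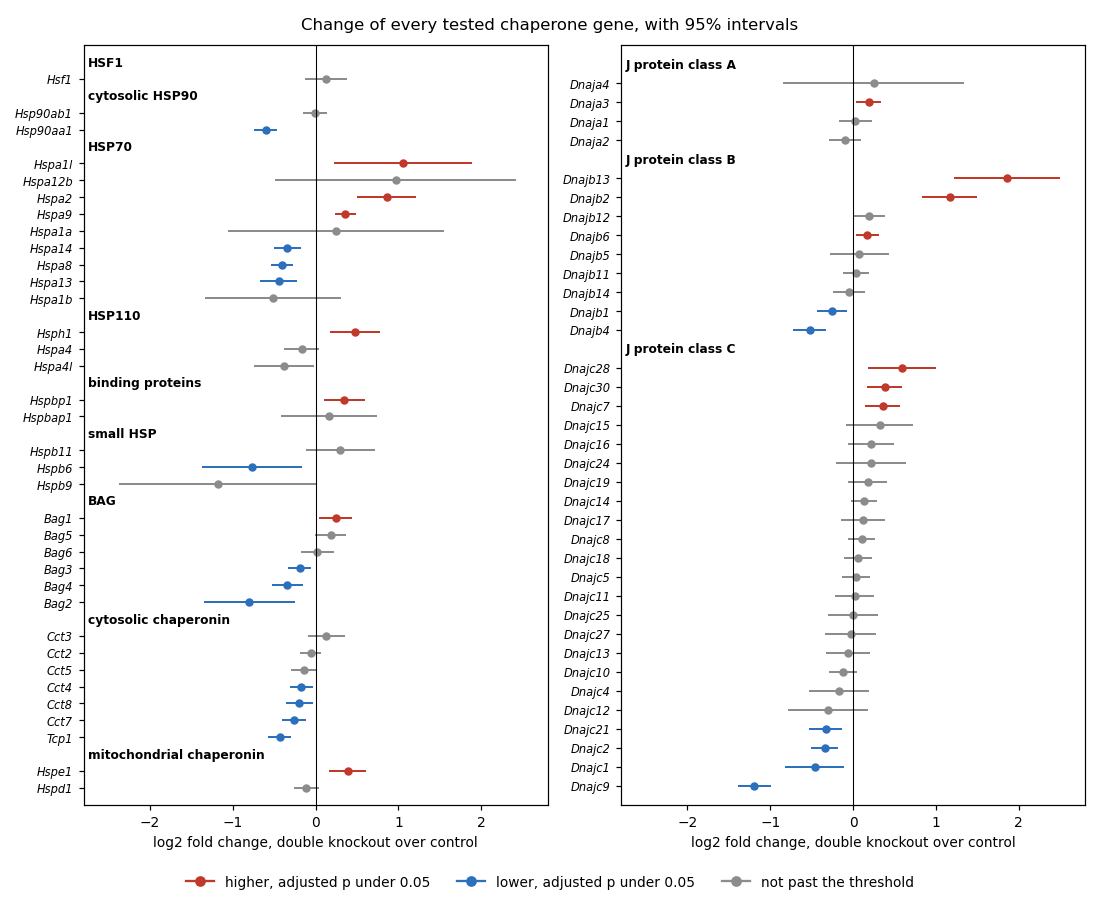
Log2 fold change of the 71 tested members (double knockout over control, points) with 95% intervals (lines), grouped by family. Of these, 14 lie to the right and 18 to the left past the threshold, and Dnajb13 and Dnajc9 mark the ends of the range among them.

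The regulator itself did not pass the test, and its known targets moved both ways. Hsf1 (ENSMUSG00000022556, chromosome 15, 76477422 to 76501913, mm10) stood at 435, 442, 419 and 545 in double knockouts 1 to 4, against 406, 473, 408 and 389.6 in controls 1 to 4. Its groups overlapped, and the difference did not pass the test (log2 0.13, adjusted p = 0.357, 95% interval -0.11 to 0.37). The stress-inducible HSP70 genes Hspa1a and Hspa1b, neighbours with nearly the same coding sequence among which reads can be divided, had low counts. Hspa1a had 13.6, 7.04, 21.0 and 10.7 in double knockouts, against 23.6, 13.5, 9.99 and 2.89 in controls, and Hspa1b had 10.7, 10.1, 12.0038 and 17.5 in double knockouts, against 16.7, 20.3, 13.3 and 23.1 in controls. Their sum was 25.7 ± 6.74 in double knockouts and 30.9 ± 7.71 in controls (SD, n = 4 each), with overlapping groups and an exact two-sided permutation p of 0.371. Hspb1, the small heat shock protein HSP27, was read at 2.91, 0, 1.00032 and 0 in double knockouts, against 2.95, 4.83, 8.88 and 5.79 in controls, below the filter. Of 20 known HSF1 targets, 13 of them members, 4 rose and 7 fell among 19 tested (median log2 fold change -0.19), against 22.9% higher, 23.8% lower and a median of 0.01 over all genes tested. The rises were those of Hsph1, Hspe1 and the HSP90 co-chaperones Ahsa1 and Fkbp4. Of 4 tested genes among HSF1, its relatives and Hsbp1, 2 rose and 1 fell. Hsf2 fell (log2 -0.44, adjusted p = 0.00688), Hsf4 was called higher at a low level (log2 1.02, adjusted p = 0.0466), and Hsbp1, which binds HSF1, rose, with 4147 ± 277 in double knockouts and 2919.8 ± 306 in controls (SD, n = 4 each, log2 0.51, adjusted p = 0.000348).

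Of the cytosolic HSP90 genes, the inducible form fell and the constitutive form did not pass the test. Hsp90aa1, which encodes the inducible HSP90 alpha, had normalized counts of 5920.2, 6106, 5885 and 6020.4 in double knockouts 1 to 4, against 8374, 9019, 9752 and 9194 in controls 1 to 4. Every double knockout lay below every control, a fall of 1.52-fold (log2 fold change -0.60, SE 0.06, adjusted p = 6.24e-06). Hsp90ab1, the constitutive beta form, had 24551, 23378, 22582 and 22978 in double knockouts 1 to 4, against 21946, 24705, 24563 and 22739 in controls 1 to 4, with overlapping groups (log2 -0.01, adjusted p = 0.945, 95% interval -0.14 to 0.12). The ratio of Hsp90aa1 to Hsp90ab1 was 0.241 to 0.262 in double knockouts and 0.365 to 0.404 in controls, a difference that was not tested. Per kilobase of annotated exons, Hsp90ab1 had the highest level of all members in the double knockout (7793, against 7832 in controls) and Hspa8 in the control (6624 in double knockouts, against 8778 in controls). In the same libraries all 15 mitosis markers were lower, with a median log2 fold change of -2.95, and their part was not tested.

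Among HSP70 genes, 3 rose and 3 fell of 9 tested, where 22.9% of all genes tested rose and 23.8% fell. Hspa8, the constitutive HSC70 that also strips clathrin from vesicles, had 29462, 28796, 27899.9 and 27808 in double knockouts 1 to 4, against 36656, 39536, 39068 and 35765 in controls 1 to 4. It fell 1.32-fold with no overlap (log2 fold change -0.41, SE 0.06, adjusted p = 0.000101). Hspa9, the mitochondrial HSP70 that pulls proteins through the inner membrane, had 8346, 8470.2, 8192 and 8449 in double knockouts 1 to 4, against 6364, 6341, 6636 and 6735 in controls 1 to 4. All double knockouts lay above all controls (log2 fold change 0.36, SE 0.05, adjusted p = 0.000137). Hspa9 over Hspa8 was 0.283 to 0.304 in double knockouts and 0.160 to 0.188 in controls (not tested as a ratio). Hspa2, a form best known from sperm development, had 209, 189, 227 and 277 in double knockouts 1 to 4, against 125, 102, 134 and 131 in controls 1 to 4 and rose 1.81-fold (adjusted p = 0.00083). Hspa1l, another form of the testis, had 22.7 ± 4.49 in double knockouts and 10.7 ± 4.07 in controls (SD, n = 4 each) and was called higher (log2 1.06, adjusted p = 0.0375), but the call was lost without double knockout 1, 2, 3 or 4 or control 2, 3 or 4 (adjusted p = 0.0528 to 0.093, and at most 0.103 over its 15 alternatives). Hspa13, an HSP70-like protein of the endoplasmic reticulum, had 821, 1025, 840.3 and 896 in double knockouts, against 1107, 1195, 1182 and 1402 in controls and fell (log2 fold change -0.45, SE 0.10, adjusted p = 0.00252). Hspa14, which works at the ribosome with the J protein Dnajc2, fell, with 866 ± 17.9 in double knockouts and 1098 ± 55.8 in controls and no overlap (SD, n = 4 each, log2 -0.34, adjusted p = 0.00171). Its exons share 7.91% of their bases with a predicted gene on the same strand. Hspa12b was near the filter (log2 0.97, adjusted p = 0.252), and Hspa12a was too low to test.

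**Figure D2:**
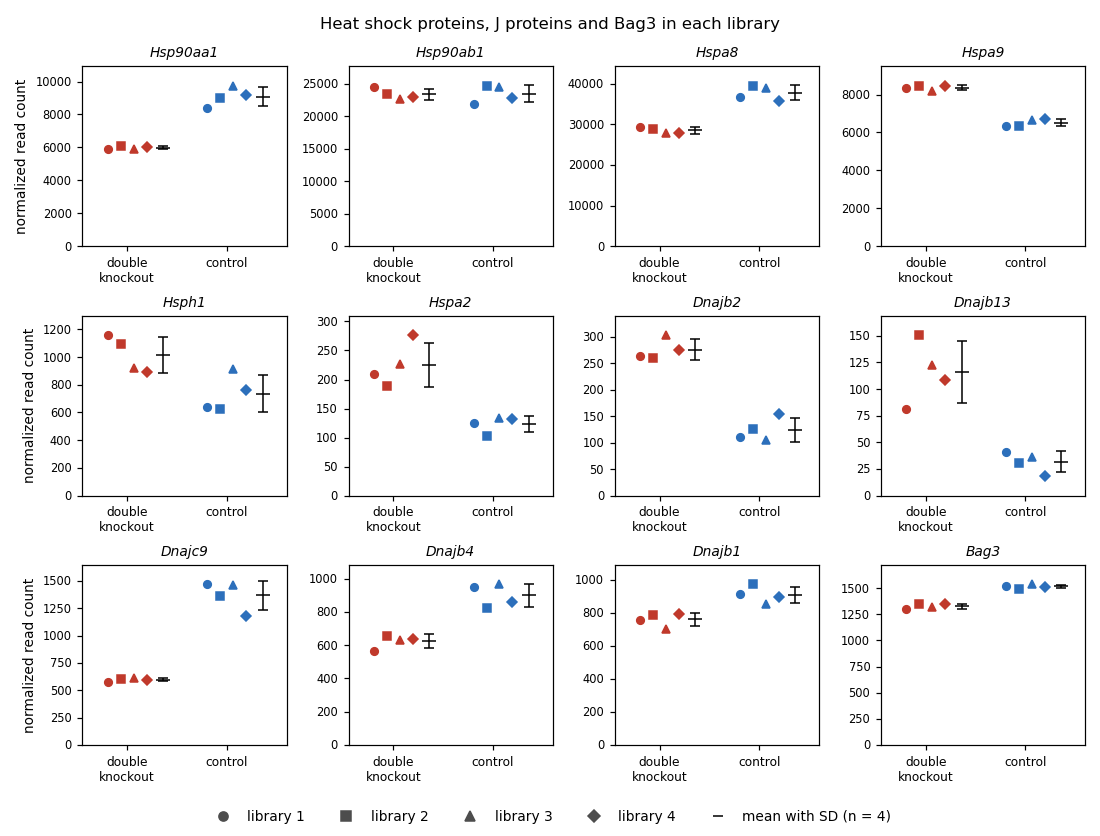
Normalized read counts (linear axes from 0) of 12 members in each of the 8 libraries, double knockout left and control right, with the mean and SD (n = 4) beside the points. Hsp90aa1, Hspa8, Dnajc9, Dnajb4, Dnajb1 and Bag3 lie lower and Hspa9, Hspa2, Dnajb2 and Dnajb13 higher in every double knockout than in every control, whereas Hsp90ab1 and Hsph1 overlap.

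Of the 3 HSP110 genes, Hsph1 was called higher, and of the 2 binding proteins, Hspbp1. None was called lower. Among all genes tested, 22.9% were called higher and 23.8% lower. Hsph1, the inducible HSP110, had 1159, 1096, 920.3 and 889 in double knockouts 1 to 4, against 639, 624, 909.97 and 764 in controls 1 to 4. Double knockouts 3 and 4 lay near the highest control, with the lowest of them below it. The gene rose 1.39-fold (log2 fold change 0.48, SE 0.13, adjusted p = 0.0108). Its call held in all 16 alternatives, but only just when double knockout 1 was averaged with 2 and 3 with 4 (adjusted p = 0.0499). The other HSP110 genes did not pass, with Hspa4 at log2 -0.17 (adjusted p = 0.141) and Hspa4l at log2 -0.38 (adjusted p = 0.0704, and lower past the threshold without double knockout 2). Hspbp1, which opens the nucleotide site of HSP70, was called higher, with 1174 ± 137 in double knockouts and 921 ± 107 in controls (SD, n = 4 each, log2 0.35, adjusted p = 0.0194), and the call was lost without double knockout 1 or 4 or control 3 (adjusted p = 0.0535 to 0.0634, and at most 0.0634 over its 16 alternatives). Hspbap1, named for binding a small heat shock protein, had log2 0.16 (adjusted p = 0.645).

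Of the 6 BAG genes, 1 was called higher and 3 lower, where 46.6% of all genes tested were called, and the calls on Bag1, Bag2 and Bag3 were lost in some alternatives. Bag3, which links HSP70 to autophagy, had 1299.96, 1349.9, 1320.4 and 1348 in double knockouts 1 to 4, against 1521, 1494, 1538 and 1517 in controls 1 to 4. The groups did not overlap, and the fall was 1.14-fold (log2 fold change -0.19, SE 0.06, adjusted p = 0.0183), and the call was lost without control 3 (adjusted p = 0.0541, and at most 0.0832 over its 16 alternatives). Bag4, known as a silencer of death domain receptors, fell (log2 -0.34, adjusted p = 0.00449). Bag2, an inhibitor of the ubiquitin ligase CHIP, fell at a low level, with 30.7 ± 5.58 in double knockouts and 54.1 ± 9.69 in controls (SD, n = 4 each, log2 -0.80, adjusted p = 0.0199). It lost the call without control 1 (adjusted p = 0.0588, the highest over its 15 alternatives). The call on Bag2 was also lost when double knockout 1 was averaged with 2 and 3 with 4 (adjusted p = 0.0505). Bag1, an exchange factor that also binds the kinase Raf-1, was called higher, with 4537 ± 489 in double knockouts and 3832 ± 342 in controls (SD, n = 4 each, log2 0.24, adjusted p = 0.0385), and its call was lost without double knockout 3 or 4 or control 2, 3 or 4 (adjusted p = 0.0789 to 0.114, and at most 0.114 over its 16 alternatives). The call on Bag1 was also lost without a filter, under quantile normalization, without trend and robust options, with the replicate block and when close libraries were averaged. Bag5 and Bag6 did not pass (adjusted p = 0.0834 and 0.85), though Bag5 had no overlap between groups and was called under quantile normalization.

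J proteins held the highest and the lowest log2 fold change of the called members, those of Dnajb13 and Dnajc9. Of 43, 36 were tested, 7 rose and 6 fell, and 23 did not pass, so 36.1% were called against 46.6% of all genes tested. Dnajb13, a protein of sperm and cilia axonemes, had 81.6, 151, 123 and 108 in double knockouts 1 to 4, against 41.3, 30.9, 36.6 and 18.3 in controls 1 to 4 and rose 3.63-fold (log2 fold change 1.86, SE 0.29, adjusted p = 0.000248). Its exons overlap those of Ucp2 on the opposite strand over 305 bases, and Ucp2, at 15779 ± 785 in double knockouts and 24970.5 ± 1627 in controls, fell (log2 -0.66, adjusted p = 5.67e-06). No source states whether counting used the strand, so reads of overlapping genes cannot be told apart. Dnajb2, known for carrying clients of HSP70 to the proteasome in neurons, had 263, 260.3, 303 and 275 in double knockouts 1 to 4, against 110.1, 126, 104 and 154 in controls 1 to 4. It rose 2.24-fold with no overlap (log2 fold change 1.16, SE 0.15, adjusted p = 5.48e-05). Dnajb6, a suppressor of protein aggregation whose promoter holds the element shown above, was called higher, with 3402 ± 44.9 in double knockouts and 3026 ± 159.7 in controls (SD, n = 4 each, log2 0.17, adjusted p = 0.0285), and the call was lost without double knockout 2, 3 or 4 or control 3 or 4 (adjusted p = 0.0517 to 0.0904, and at most 0.122 over its 16 alternatives).

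Dnajb1 and Dnajb4, class B proteins close to each other in sequence, both fell. Dnajb1, the main HSP40 of the heat response, had 757, 785, 703 and 794 in double knockouts 1 to 4, against 911, 972, 851 and 897 in controls 1 to 4 (log2 fold change -0.26, SE 0.08, adjusted p = 0.0174). No double knockout reached the lowest control, though the call was lost without double knockout 3 or control 2 (adjusted p = 0.0519 to 0.0536, and at most 0.0636 over its 16 alternatives). Dnajb4 had 565, 657, 634 and 639 in double knockouts 1 to 4, against 948, 825, 967 and 857 in controls 1 to 4 (log2 fold change -0.53, SE 0.09, adjusted p = 0.000404), also without overlap. The abundant class A genes did not pass: Dnaja1 had 4088, 4301, 3468 and 3887 in double knockouts, against 3312, 4178, 3876 and 4101 in controls (log2 0.03, adjusted p = 0.827, 95% interval -0.16 to 0.22), and Dnaja2 had log2 -0.10 (adjusted p = 0.371). Dnaja3, the mitochondrial class A protein that serves Hspa9, was called higher, with 1401 ± 73.9 in double knockouts and 1231 ± 11.1 in controls (SD, n = 4 each, log2 0.19, adjusted p = 0.0335), with the call lost without double knockout 2, 3 or 4 or control 2 or 3 (adjusted p = 0.0508 to 0.0884, and at most 0.11 over its 16 alternatives). The endoplasmic reticulum genes Dnajb11, Dnajb12 and Dnajb14 did not pass (log2 0.04, adjusted p = 0.672; log2 0.19, adjusted p = 0.0841; log2 -0.05, adjusted p = 0.646), and Dnajb12 was called higher without double knockout 3 and under quantile normalization. Dnajb5 and Dnaja4 did not pass either (adjusted p = 0.727 and 0.714).

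Class C holds J proteins with tasks of their own, and Dnajc9 changed most. Dnajc9, which carries histones H3 and H4, had 577, 598, 613 and 594 in double knockouts 1 to 4, against 1468, 1357, 1465 and 1182 in controls 1 to 4. The double knockouts lay in a narrow range below the lowest control, a fall of 2.29-fold (log2 fold change -1.19, SE 0.08, adjusted p = 3.96e-07). The mitosis markers were lower in the same libraries, 15 of 15, and their part in the fall of Dnajc9 was not tested. Dnajc2, the ribosome partner of Hspa14, fell, with 994 ± 60.9 in double knockouts and 1261 ± 28.2 in controls (SD, n = 4 each, log2 -0.34, adjusted p = 0.00165), and Dnajc21, which acts in the making of the large ribosomal subunit, fell as well (log2 -0.33, adjusted p = 0.00659). Dnajc1, a membrane protein of the endoplasmic reticulum, had 917, 575, 509 and 712 in double knockouts 1 to 4, against 938, 805, 954 and 961 in controls 1 to 4 and was called lower (log2 fold change -0.46, SE 0.16, adjusted p = 0.0311). Double knockout 1 lay inside the control range, and the call was lost without double knockout 2 or 3 or control 1, 3 or 4 (adjusted p = 0.061 to 0.0828, and at most 0.0828 over its 16 alternatives). The call on Dnajc1 was also lost without trend and robust options. Dnajc7, which binds both HSP70 and HSP90, rose, with 2651 ± 228 in double knockouts and 2074 ± 242 in controls (SD, n = 4 each, log2 0.36, adjusted p = 0.00694). It shares 287 exonic bases with Nkiras2 on the opposite strand, which rose too (log2 0.43, adjusted p = 0.000954).

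Mitochondrial J proteins were among the class C genes that rose. Dnajc30, which acts on the ATP synthase and the respiratory chain, had 501, 519, 499 and 511 in double knockouts 1 to 4, against 421, 381, 411 and 349 in controls 1 to 4 and rose 1.302-fold (adjusted p = 0.00506). Its exons overlap Bud23 on the opposite strand over 26.2% of their bases, and Bud23 had log2 -0.15 (adjusted p = 0.333). Dnajc28 had 120.4, 108, 95.03 and 109 in double knockouts 1 to 4, against 59.0, 66.7, 89.9 and 73.3 in controls 1 to 4 and was called higher (log2 fold change 0.59, SE 0.18, adjusted p = 0.0207), with the call lost without double knockout 1 or control 1 (adjusted p = 0.0535 to 0.056, and at most 0.0723 over its 16 alternatives). Of the import motor genes, neither Dnajc15 nor Dnajc19 passed (log2 0.32, adjusted p = 0.171; log2 0.17, adjusted p = 0.187). The other tested class C genes did not pass: Dnajc5 of synaptic and secretory vesicles, Dnajc8 and Dnajc17 of the spliceosome, Dnajc10 of disulfide reduction, Dnajc13 of endosomes, Dnajc24 of diphthamide synthesis, and Dnajc4, Dnajc11, Dnajc12, Dnajc14, Dnajc16, Dnajc18, Dnajc25 and Dnajc27. Their log2 fold changes lay between -0.31 for Dnajc12 and 0.21 for Dnajc16, and of these 14 genes only Dnajc14 had no overlap between groups (adjusted p = 0.114). Dnajc12 was called lower without double knockout 1, and Dnajc24 was called higher without control 3.

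Of the 8 small heat shock proteins, 3 were tested. Hspb2 and Hspb3 were at 0 in every library, and Hspb1, Hspb7 and Hspb8 were below the filter. Hspb6, HSP20 of smooth and heart muscle, had 33.0, 50.3, 45.01 and 80.9 in double knockouts 1 to 4, against 70.8, 102, 95.4 and 75.2 in controls 1 to 4 and was called lower (log2 fold change -0.76, SE 0.27, adjusted p = 0.0369). Double knockout 4 lay inside the control range, and the call was lost without double knockout 1, 2 or 3 or control 2 or 3 (adjusted p = 0.0637 to 0.0973, and at most 0.0973 over its 16 alternatives). The call on Hspb6 was also lost without a filter, under quantile normalization, with the replicate block and when close libraries were averaged. Hspb6 shares 122 exonic bases with Proser3 on the opposite strand, which also fell (log2 -1.10, adjusted p = 0.014). Hspb11, a part of the intraflagellar transport machinery, and Hspb9, a testis form, did not pass (adjusted p = 0.211 and 0.0913).

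The cytosolic chaperonin TRiC, which folds actin and tubulin, had 4 subunit genes called lower and none higher of 7 tested, against 23.8% lower and 22.9% higher among all genes tested, and 2 of the 4 calls were lost in some alternatives. Tcp1 had 3721, 3718, 3801 and 3756 in double knockouts 1 to 4, against 4811, 5437, 5131 and 4879.5 in controls 1 to 4, the lowest log2 fold change of the family (log2 fold change -0.43, SE 0.06, adjusted p = 7.36e-05). Its double knockout values kept within a narrow range below all controls, a fall of 1.35-fold. Cct7 had 3522, 3858, 3576 and 3502 in double knockouts, against 4213, 4524, 4462 and 4076 in controls and fell (log2 -0.26, adjusted p = 0.00419). Tcp1 and Cct7 overlap neighbours on the opposite strand, Tcp1 over 141 bases with Mrpl18 and Cct7 over 214 bases with Pradc1, and both neighbours fell (log2 -0.29, adjusted p = 0.0215; log2 -1.08, adjusted p = 0.000414). Cct4 and Cct8 were called lower with smaller changes (log2 -0.17 and -0.19, adjusted p = 0.029 and 0.0337). Cct4 lost its call without double knockout 1, 2 or 3 or control 2 or 3 (adjusted p = 0.0561 to 0.105, and at most 0.121 over its 16 alternatives), and Cct8 without double knockout 3 or 4 or control 2 or 3 (adjusted p = 0.0838 to 0.102, and at most 0.117 over its 16 alternatives). Cct3 had 3709.6, 3532, 3758 and 3608 in double knockouts 1 to 4, against 3920.3, 3607, 3238 and 2718 in controls 1 to 4, the highest log2 fold change of the subunits, and its controls spread over the whole range of the double knockouts (log2 0.13, adjusted p = 0.302, 95% interval -0.08 to 0.34). Cct2 and Cct5 did not pass (log2 -0.06, adjusted p = 0.373, and log2 -0.14, adjusted p = 0.109), and Cct5 was called lower without control 1. The summed count of the family was 27911 to 28406 in double knockouts and 30044 to 33060.4 in controls. Cct6b, a testis form, and Cct8l1 were too low to test. No row for the subunit gene Cct6a was among the members, so the counts and the sum leave it out.

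**Figure D3:**
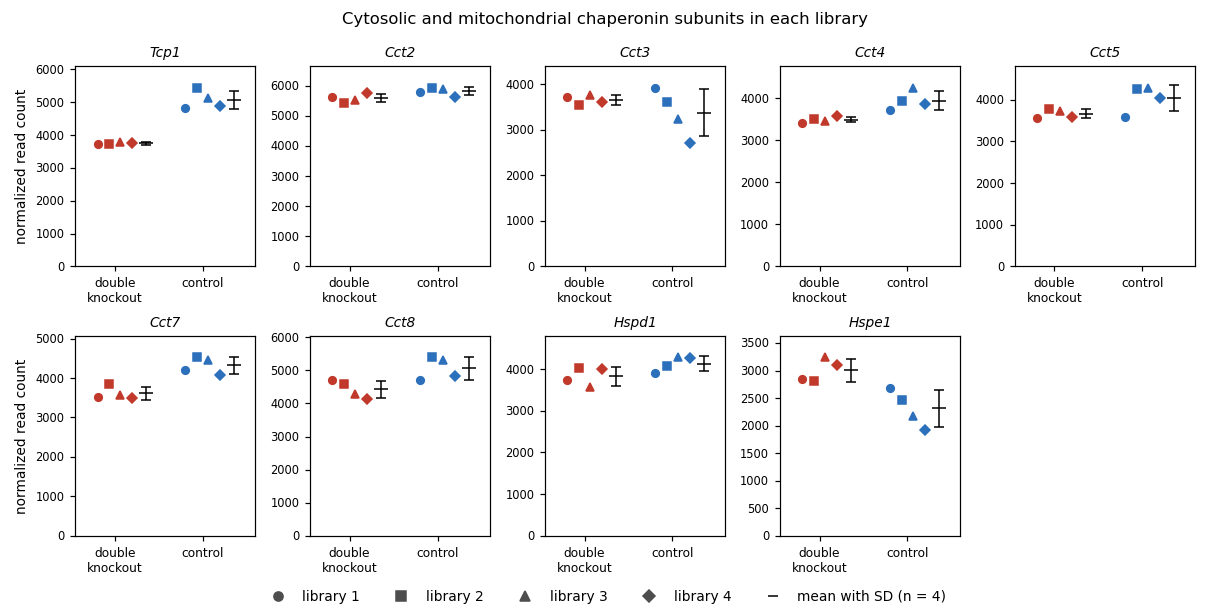
Normalized read counts (linear axes from 0) of 7 cytosolic chaperonin subunits and of Hspd1 and Hspe1 in each library, double knockout left and control right, with the mean and SD (n = 4). Tcp1, Cct4, Cct7 and Cct8 lie lower in every double knockout than in every control, Hspe1 lies higher, and Cct3 spreads more among controls than among double knockouts.

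Of the mitochondrial chaperonin genes, which share the region shown above, Hspe1 rose and Hspd1 did not pass the test. Hspe1, the lid protein HSP10, had 2851, 2816, 3240.03 and 3108 in double knockouts 1 to 4, against 2679, 2472, 2183 and 1918 in controls 1 to 4 and rose 1.31-fold with no overlap (log2 fold change 0.39, SE 0.10, adjusted p = 0.00687). Hspd1, the barrel protein HSP60, had 3729.97, 4028, 3561 and 3991 in double knockouts 1 to 4, against 3913, 4065, 4282 and 4256 in controls 1 to 4, with overlapping groups (log2 -0.11, adjusted p = 0.163, 95% interval -0.24 to 0.02). Hspe1 over Hspd1 was 0.699 to 0.910 in double knockouts and 0.451 to 0.685 in controls, a difference that was not tested. Hspe1 also differed among libraries of 1 genotype: controls spread from 1918 to 2679, and double knockouts 3 and 4, which had the higher share of mitochondrially encoded reads, stood above 1 and 2; the part of that share was not tested. In the GENCODE annotation, whose start sites differ from those of the RefSeq windows, exons of the pair overlap on opposite strands over 112 bases. Taking the 10 members known or predicted to work in mitochondria as a group, a choice made after their values were seen, 5 were called higher (Hspa9, Hspe1, Dnaja3, Dnajc28 and Dnajc30) and none lower, with a median log2 fold change of 0.25. Nothing is read from that count, beside which 22.9% of all genes tested were called higher.

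**Figure D4:**
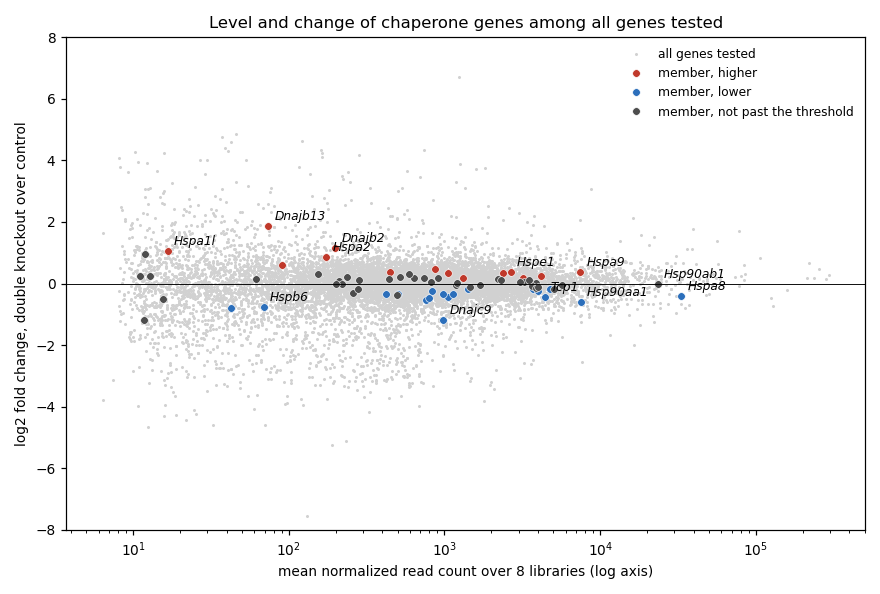
Log2 fold change (double knockout over control) against the mean normalized count over the 8 libraries (log axis) for all 11675 genes tested (grey) and the 71 tested members (coloured by call). The most abundant members Hspa8 and Hsp90ab1 lie at -0.41 and -0.01, and 4 of the 71 members are past the threshold with a change of at least 2-fold.

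Genes that work with the members, taken from lists outside them, moved both ways, beside 22.9% higher and 23.8% lower and a median of 0.01 over all genes tested. Of 28 co-chaperones of HSP90 and HSP70, 9 rose and 8 fell (median log2 fold change -0.04). Fkbp5, an immunophilin of steroid receptor complexes, had 682, 772, 639 and 817 in double knockouts 1 to 4, against 1873, 1902, 1934 and 2160.1 in controls 1 to 4 and fell 2.71-fold with no overlap (log2 fold change -1.44, SE 0.09, adjusted p = 1.33e-07). Ptges3, the HSP90 partner p23, fell (log2 -0.38, adjusted p = 0.00045), while Sgta, which hands membrane proteins to Bag6, and Fnip2, a brake on the HSP90 ATPase, rose (log2 0.54, adjusted p = 0.000358, and log2 0.48, adjusted p = 0.000428). Of 19 prefoldin genes and chaperonin partners, 6 rose and 2 fell, with a median of 0.09. Tbcb, a tubulin folding cofactor, rose, with 2419 ± 226 in double knockouts and 1566 ± 258 in controls (SD, n = 4 each, adjusted p = 0.000655), and Pfdn5, a prefoldin subunit, rose too, with 4918 ± 513 in double knockouts and 3187 ± 519 in controls (SD, n = 4 each, adjusted p = 0.000936). Pdcl3 and Pdrg1 also rose (log2 0.32, adjusted p = 0.00367; log2 0.25, adjusted p = 0.012). Of 13 other mitochondrial chaperones and proteases, 3 rose and 3 fell, with a median of -0.08. Hscb, a J protein of iron-sulfur cluster assembly, and the protease genes Clpp and Spg7 rose (log2 0.68, adjusted p = 0.000439, log2 0.52, adjusted p = 0.000926, and log2 0.47, adjusted p = 0.00367), whereas Afg3l2, the partner of Spg7 in its protease, fell (log2 -0.33, adjusted p = 0.00472). Of 5 nascent chain and small heat shock partners, 3 were tested, and 2 of them rose, with a median of 0.22. Immediate early genes, which respond to handling, gave 3 higher and 5 lower of 14 tested and a median of 0.02, with Fos lower (log2 -1.64, adjusted p = 2.22e-08) and Atf3 higher (log2 0.90, adjusted p = 6.07e-07).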

How the data were processed

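The deposited values are 1 normalized signal per gene and library. The authors quantified reads with Salmon 1.4.0 and normalized them with DESeq2 on build mm10, per the submitters' processing notes, from a Kapa mRNA kit, per the labels' protocols. No source used here gives the annotation release, filters or strand use. Within a tolerance of 0.01, 100% of values were whole multiples of 1 step per library. The sums of these multiples are the totals of estimated reads assigned to genes given above. The rule used here for accepting recovered reads as counts does not take steps close to 1, such as those of double knockouts 2 and 3, so no count model was fitted although these values, too, were whole multiples.

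Members, lists and the rule for named genes were chosen with earlier results of these data known. A gene entered the test if 4 or more libraries reached 10. Genotype was the only term in limma 3.58.1 (R 4.3.3, trended and robust moderation, two-sided) on log2(value + 1), a scale that understates the change of low genes, and Benjamini-Hochberg adjustment ran over the 11675 genes. The fit was tested on simulated data with independent libraries, which cannot show how it behaves where libraries form close pairs. The inducible HSP70 sum was compared by exact permutation. Exons and overlaps came from GENCODE M21, and levels per kilobase use merged exons. Counts of the 12 replicate pairs within groups differed beyond sampling noise (chi-square per gene from 7.94 to 38.2), and each library counted once. Such differences do not show that the libraries are independent.

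Per-library values were given for Cdk8, Cdk19, fixed members, the ends of the cytosolic chaperonin family and the 8 largest called rises and falls among members averaging 50 or more. Other called members were named with their change, as were up to 4 genes per outside list. Alternatives changed the pseudocount, filter, scaling, moderation and replicate block, averaged close libraries or left out 1 library. Promoter sequences are from RefSeq (GRCm38.p6).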

Additional observations from a re-analysis of the deposited data

Results flagged for a closer look

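Tested members that were called, or that the rule for named genes picked, were checked for a library apart, and other members were not. Among their 78 groups of 4 libraries, 1 library stood apart by Dixon's test, where chance flags about 1 in 20. Dnajc1 had 805.3 in control 2, against 937.6, 954.4 and 961.4 in the other controls.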

How the results depend on the processing

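Of the 32 called members, 19 kept their call in all 16 alternatives that tested them, and none changed sign. The 8 that rose were Hspa2, Hspa9, Hsph1, Hspe1, Dnajb2, Dnajb13, Dnajc7 and Dnajc30, and the 11 that fell were Hsp90aa1, Hspa8, Hspa13, Hspa14, Tcp1, Cct7, Bag4, Dnajb4, Dnajc2, Dnajc9 and Dnajc21. The count of members called higher, 14 in the report, was 9 when double knockout 1 was averaged with 2 and 3 with 4, where 12 were lower, and 9 with the replicate block, where 14 were lower. Leaving out 1 library gave 9 to 13 higher and 13 to 17 lower, and the log2 fold change of the summed Hspa1a and Hspa1b ran between -0.39 and -0.09. Pseudocounts of 0.5 and 5 changed no call. Without a filter 26 of the 32 calls held, without trend and robust options 27, and under quantile normalization 30. A filter at 50 left Bag2 and Hspa1l untested. The cause of the lost calls was not tested. Same-numbered libraries correlated at -0.05, 0.03, -0.04 and -0.04 in their deviations from the group means, and not each correlated best with its own number. These correlations showed no pairing by replicate number, but a weak shared effect could go unseen in them. The planned count models and the scaling on whole reads were not run. Of the 15 untested members, 5 were at 0 in every library, and absence and a level under detection cannot be told apart at this depth.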
